A study of Mus musculus with 9 samples.

Results

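Loss of HIF1α in the intestinal epithelium was compared with littermate controls across all genes, in 6 of the 9 RNA sequencing libraries of the study. The 3 libraries labelled HIF1α∆IEC and the 3 control libraries, labelled HIFαF/F, were chosen by their labels alone, and the 3 HIF2α∆IEC libraries entered the filter on low counts, the scaling, the estimate of spread and 1 side-by-side value. The RNA came from small intestine epithelial cells of naïve mice. ∆IEC in the labels marks a deletion in intestinal epithelial cells, and F/F a floxed, undeleted gene. The labels name no Cre driver, no age and no sex, and do not say which of the HIFα genes is floxed in the controls. They do not say that each library is a separate animal, so a p-value here covers the spread among the libraries at hand, part of which may be technical. Of 43629 genes in the deposited count table, 15486 passed the filter over all 9 libraries and were tested, and 14569 passed it over the 6 libraries alone.

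HIF1α is the oxygen-regulated subunit of a transcription factor that pairs with ARNT. When oxygen is low it escapes degradation and switches on genes of glycolysis, glucose uptake and mitochondrial restraint by binding short motifs with a CGTG core. The intestinal mucosa is known for its steep oxygen gradient, with low oxygen next to the lumen, and epithelial HIF1α is studied there for its part in barrier and mucus genes.

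Total counts were 20959964 to 29931812 in HIF1α∆IEC and 21461212 to 24706678 in the controls. HIF1α∆IEC replicate 2 stood apart: mitochondrially encoded genes took 5.95%, 12.2% and 6.03% of the counts in HIF1α∆IEC replicates 1, 2 and 3, against 5.04%, 6.74% and 5.89% in the controls. Its Pearson correlations of log2 CPM (a gene's counts scaled to a common library size) with the other 5 libraries were 0.953 to 0.963. The closest pair of all 6 libraries crossed the groups: HIF1α∆IEC replicate 1 and control replicate 1 correlated at 0.994 across genes, which are not independent replicates, and their counts differed by a chi-square of 16.3 per gene, against at least 39.9 within a group. Xist and 4 Y-linked genes read HIF1α∆IEC replicate 1 and all 3 controls as male and HIF1α∆IEC replicates 2 and 3 as female. Markers of the labelled tissue were abundant: 18 enterocyte markers summed to between 22208 and 28997 CPM in HIF1α∆IEC and between 19487 and 27000 CPM in the controls.

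No gene passed the test across all genes. The quasi-likelihood test of edgeR called 0 of 15486 genes (0% called at an adjusted p under 0.05), and the smallest adjusted p was 0.999, so every difference below is a description of these 6 libraries. At an unadjusted p under 0.05 stood 600 genes, 3.87% of those tested, where 774 (5% of those tested) would be reached by chance. Of the 600 genes, 450 were higher and 150 lower in HIF1α∆IEC. That split turned to 263 higher and 345 lower with libraries scaled by their totals alone, and to 145 higher and 305 lower without HIF1α∆IEC replicate 2. DESeq2 called 2 genes and limma-voom called 0. All levels are CPM scaled by TMM (a trimmed mean of library ratios), and log2 fold changes are HIF1α∆IEC over control with their standard error (SE).

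The groups did not overlap, meaning that all 3 HIF1α∆IEC libraries lay on one side of all 3 controls, for 713 genes above the controls (4.60%) and 576 genes below them (3.72%), or 8.32% of the genes tested. Interchangeable libraries, 3 against 3, would separate in a share of 0.1 of genes by chance, and the share seen did not exceed that. Most of the gaps between the groups were narrow. Among those with a mean of at least 1 CPM, the nearest libraries of the groups lay a median of 1.07-fold apart in 584 higher genes and 1.05-fold apart in 419 lower genes. A gap of at least 1.5-fold was reached by 11 higher and 13 lower genes. HIF1α∆IEC replicate 1 was the library nearest to the controls in 377 of the 584 higher genes (64.6%) and in 201 of the 419 lower genes (48.0%). The widest gap among the higher genes, 2.06-fold, belonged to Susd3, which encodes a membrane protein with a sushi domain; it is named here after its values were seen. Susd3 had 4.60, 4.01 and 5.24 CPM in HIF1α∆IEC, against 1.66, 1.95 and 1.78 CPM in the controls (1.36, and 2.20 with a term for sex in the fit).

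**Figure D1:**
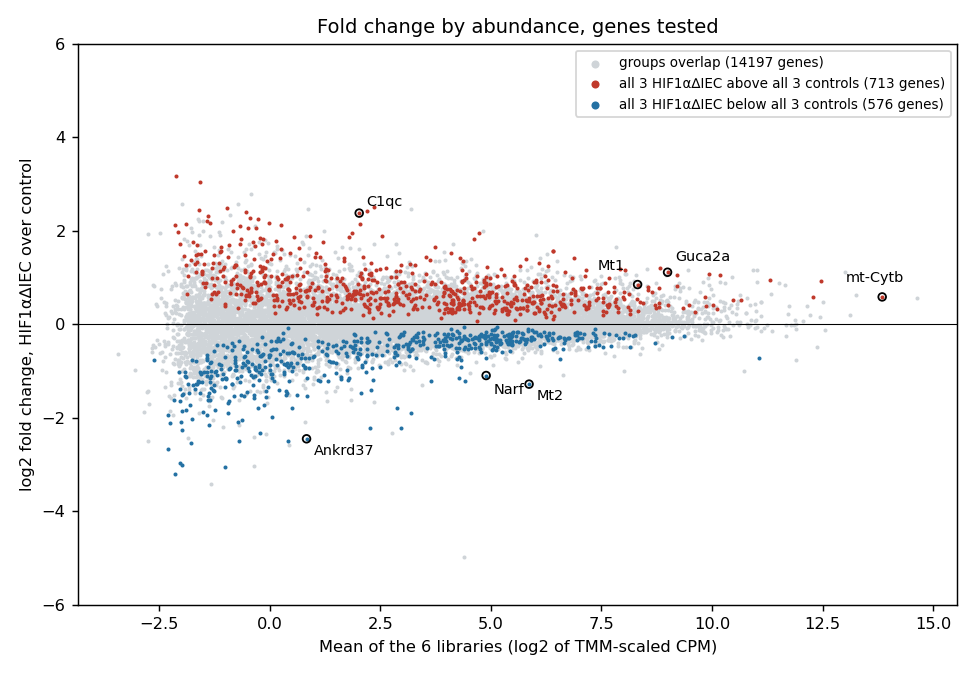
Mean of the 6 libraries on the x axis (log2 of TMM-scaled CPM) against the log2 fold change of HIF1α∆IEC over control on the y axis, 1 point per gene tested, with 2 genes beyond the axis limit of 6 not drawn. Red points are the 713 genes with all HIF1α∆IEC libraries above all controls, blue points the 576 with all below and grey points the rest; the labelled genes are described in the text.

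The targeted gene did not mark the groups. Hif1a lies on the plus strand of mm10 chromosome 12, from 73901375 to 73947530 (ENSMUSG00000021109). Its level was 22.6, 64.2 and 18 CPM in HIF1α∆IEC, against 16.0, 19.9 and 21.1 CPM in the controls. HIF1α∆IEC replicate 2 alone was high; the log2 fold change was 0.88 ± 0.46 with it and 0.066 without it. The deposited value counts a whole gene, and the labels do not name the deleted exons, so it need not read the deletion. Epas1, which encodes HIF2α, was at 0.05 ± 0.46 (0.81 with a term for sex in the fit), and Arnt, the shared partner, at -0.14 ± 0.23 (-0.24 without HIF1α∆IEC replicate 2, -0.06 without control replicate 3 and -0.09 with a term for sex). The libraries are called by their labels throughout. Among 68 tested genes within 5 Mb of Hif1a, 38 were positive and 30 negative (median 0.03), with 3 above and 2 below the controls without overlap. Those were 4.41% and 2.94%, against 4.60% and 3.72% over all genes tested.

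Narf, a hypoxia-inducible gene for a nuclear protein that binds prelamin A, was among the lower genes of smallest p. It had 22.1, 18.1 and 16.7 CPM in HIF1α∆IEC, against 37.1, 39.9 and 44.3 CPM in the controls. Every HIF1α∆IEC library was low, replicate 1 included, and the gap between the nearest libraries was 1.68-fold (log2 fold change -1.09 ± 0.25). Ankrd37, an ankyrin-repeat gene known as a direct HIF target, had 0.399, 0.211 and 0.998 CPM in HIF1α∆IEC, against 4.83, 2.44 and 1.78 CPM in the controls. Here too the groups stood apart, by 1.79-fold between nearest libraries, at a level near 1 CPM (-2.45 ± 0.63). Ak4, a mitochondrial adenylate kinase and HIF target, had 0.435, 0.475 and 0.214 CPM in HIF1α∆IEC, against 1.42, 0.772 and 1.67 CPM in the controls (-1.78 ± 0.56).

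The promoters of the 2 hypoxia targets among the lower genes of smallest p are shown because HIF is known to bind the core of ACGTG or GCGTG. Each runs from 250 bases before to 50 after the start, from RefSeq on GRCm38.p6, with every ACGTG or GCGTG on either strand in capitals (on the opposite strand it reads CACGT or CACGC). The Narf window is chr11:121236986-121237285 on the plus strand and the Ankrd37 window chr8:45999801-46000100 on the minus strand.
Narf: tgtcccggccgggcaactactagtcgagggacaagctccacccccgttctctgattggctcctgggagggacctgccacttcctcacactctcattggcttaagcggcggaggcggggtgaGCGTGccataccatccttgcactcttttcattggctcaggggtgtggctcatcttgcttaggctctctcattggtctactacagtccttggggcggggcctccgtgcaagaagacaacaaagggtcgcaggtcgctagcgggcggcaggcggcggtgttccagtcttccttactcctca
Ankrd37: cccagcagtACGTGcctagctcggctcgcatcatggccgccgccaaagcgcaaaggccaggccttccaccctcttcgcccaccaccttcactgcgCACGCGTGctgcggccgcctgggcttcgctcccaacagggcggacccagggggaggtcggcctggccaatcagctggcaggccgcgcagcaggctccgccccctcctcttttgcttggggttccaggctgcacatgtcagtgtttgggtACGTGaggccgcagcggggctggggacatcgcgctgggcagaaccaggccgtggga
Narf held 1 match, at -129 from the start. Ankrd37 held 4, at -241, -155, -152 and -6, where the matches at -155 and -152 overlap as CACGCGTG and read both strands. Of 32851 promoter windows of this length, 43.8% held at least 1 match and 3.86% at least 4. A match is a run of letters and not a bound site.

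The list of hypoxia-inducible genes, with Narf, Ankrd37 and Ak4 included, showed no common sign of fold change. Of 36 tested members of the list, 19 were positive and 17 negative (median 0.03, against 0.02 over all genes tested), and 0 passed the test. Over other scalings and single libraries left out the median ran from -0.11 to 0.07. Below the controls without overlap stood Narf, Ankrd37, Ak4, P4ha1 and Bnip3 (13.9% of the list, against 3.72% over all genes tested). Above the controls stood Tff3 (2.78%, against 4.60%). P4ha1, a collagen prolyl hydroxylase, was at -0.71 ± 0.56 and Bnip3, a mitophagy receptor, at -0.38 ± 0.52. Tff3, a goblet cell trefoil peptide, had 1027, 1025 and 1251 CPM in HIF1α∆IEC, against 828, 620 and 753 CPM in the controls (0.59 ± 0.22). Both groups were tight for Tff3, with every HIF1α∆IEC library above the highest control.

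Of 25 tested glycolysis genes, 20 had a negative and 5 a positive fold change (median -0.15), and 3 lay below the controls without overlap and 0 above, where 3.72% of all genes tested lay below and 4.60% above. Pgk1, phosphoglycerate kinase, had 173, 199 and 156 CPM in HIF1α∆IEC, against 200, 247 and 282 CPM in the controls (-0.46 ± 0.24). Its lowest control and highest HIF1α∆IEC library nearly touched. Aldoc, an aldolase, had 12.6, 6.60 and 10.4 CPM in HIF1α∆IEC, against 21.3, 13.5 and 14.5 CPM in the controls (-0.74 ± 0.35, and -0.31 with a term for sex). Hk2, hexokinase, had 39.1, 30.3 and 37.9 CPM in HIF1α∆IEC, against 51.5, 39.6 and 48.3 CPM in the controls (-0.38 ± 0.26). By library the list's median lay 0.14, -0.40 and 0.03 log2 units from the control mean in HIF1α∆IEC, against 0.22, -0.15 and -0.15 in the controls. The groups thus overlapped, and the median fold change was -0.30 without HIF1α∆IEC replicate 1, -0.01 without HIF1α∆IEC replicate 2 and 0.02 without control replicate 1.

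The metallothioneins Mt1 and Mt2, zinc- and copper-binding proteins encoded side by side on chromosome 8 (mm10, Mt2 at 94172618 to 94173567 and Mt1 at 94179089 to 94180325, both on the plus strand), lay in opposite directions. Mt2 had 37.6, 39.3 and 25.1 CPM in HIF1α∆IEC, against 81.4, 62.1 and 104 CPM in the controls (-1.28 ± 0.34). Mt1 had 409, 445 and 377 CPM in HIF1α∆IEC, against 236, 181 and 265 CPM in the controls (0.85 ± 0.24). Neither gene overlapped between the groups. The ratio of Mt1 to Mt2 counts, which no scaling of libraries changes, was 10.9, 11.3 and 15.0 in HIF1α∆IEC, against 2.90, 2.91 and 2.55 in the controls. On the log2 scale it averaged 3.62 ± 0.25 in HIF1α∆IEC and 1.48 ± 0.11 in the controls (SD, n = 3 each), a difference of 2.14 (exact permutation test, two-sided p = 0.1, the smallest that 3 against 3 allows). This pair was picked after the values were seen. The ratio was 8.14, 13.2 and 7.69 in HIF2α∆IEC, set against the same controls. Both genes are near-copies, and the sources used here do not say how the authors counted reads that match both, so the split is uncertain.

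**Figure D2:**
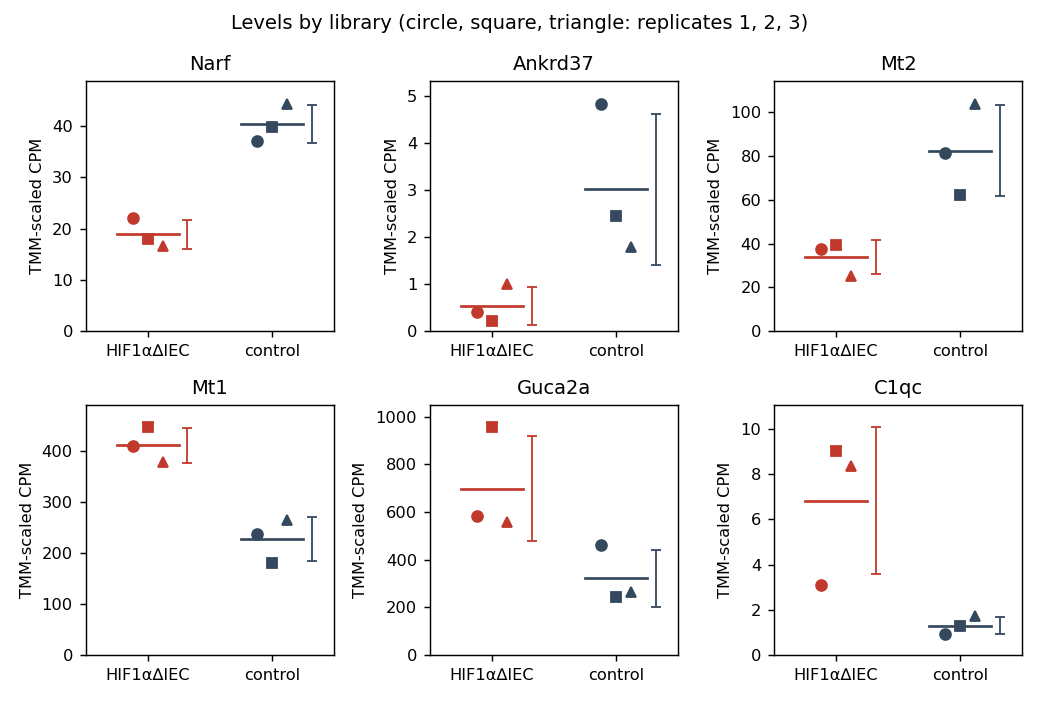
TMM-scaled CPM on the y axis of Narf, Ankrd37, Mt2, Mt1, Guca2a and C1qc in each HIF1α∆IEC (red) and control (dark blue) library; circle, square and triangle are replicates 1, 2 and 3, horizontal lines the means and brackets 1 SD of 3 libraries. In none of the 6 genes do the groups overlap, and C1qc in HIF1α∆IEC replicate 1 (3.08 CPM) lies nearer to the highest control (1.71 CPM) than to the other HIF1α∆IEC libraries.

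Several other genes stood lower without overlap. Nop56, a core protein of the particles that methylate ribosomal RNA, had 79.2, 66.0 and 68.5 CPM in HIF1α∆IEC, against 98.3, 147 and 112 CPM in the controls (-0.74 ± 0.21). Akr1b8, an aldo-keto reductase, had 3.91, 2.27 and 3.0 CPM in HIF1α∆IEC, against 4.83, 5.49 and 10.7 CPM in the controls (-1.19 ± 0.42, -0.75 without control replicate 3 and -0.77 with a term for sex). Mcpt2, a mast cell protease named after its values were seen, had 2.21, 1.74 and 2.67 CPM in HIF1α∆IEC, against 7.76, 5.69 and 4.89 CPM in the controls. Its gap of 1.83-fold was among the widest of the lower genes, and its fold change of -1.46 was -0.58 with a term for sex.

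Noncoding loci and copies made up much of the lower genes of smallest p. Tma7-ps, deposited as a processed pseudogene of a translation machinery gene, had 10.2, 14.9 and 10.9 CPM in HIF1α∆IEC, against 29.0, 23.9 and 26.9 CPM in the controls (-1.15 ± 0.26). The lincRNA 5430416N02Rik had 1.92, 2.06 and 2.32 CPM in HIF1α∆IEC, against 4.30, 5.89 and 4.10 CPM in the controls (-1.18 ± 0.32). The clone-named locus RP23-456B9.24 was at 0.435, 0.264 and 0.535 CPM in HIF1α∆IEC, against 1.37, 2.19 and 1.40 CPM in the controls, a gap of 2.56-fold. Reads of such loci may be shared with other copies or with a gene on the opposite strand, and the strand setting of the counting is not given, so they are uncertain.

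Among the higher genes of smallest p were macrophage genes. C1qc, a chain of complement C1q made by tissue macrophages, had 3.08, 9.03 and 8.34 CPM in HIF1α∆IEC, against 0.928, 1.26 and 1.71 CPM in the controls (2.38 ± 0.54; DESeq2 adjusted p = 0.0426, and 0.999 in edgeR). C1qa had 3.70, 10.3 and 13.4 CPM in HIF1α∆IEC, against 2.20, 2.72 and 2.43 CPM in the controls (1.90 ± 0.49). Csf1r, the receptor for the macrophage growth factor CSF1, had 3.59, 6.70 and 8.74 CPM in HIF1α∆IEC, against 0.977, 2.68 and 3.26 CPM in the controls. In all 3 genes HIF1α∆IEC replicate 1 was the lowest of its group. Apoe, a lipid carrier that macrophages also make, had 32.1, 32 and 50.1 CPM in HIF1α∆IEC, against 18.6, 25 and 20.4 CPM in the controls (0.84 ± 0.30).

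Of the 17 tested members of the macrophage and C1q list, 14 were positive and 3 negative (median 0.58, 0.33 without HIF1α∆IEC replicate 3 and 0.36 without control replicate 1), 7 stood above the controls without overlap (4.60% over all genes tested), and its summed level was 210 to 299 CPM in HIF1α∆IEC and 180 to 207 CPM in the controls. The 3 negative members were Itgam (-0.45 ± 0.35), Cd68 (-0.31 ± 0.34) and Cx3cr1 (-0.15 ± 0.51). Lyz2, Ctss and Cd14 lay near 0, at 0.11, 0.06 and 0.13. Cd163, a scavenger receptor on that list, had 0 counts in all HIF1α∆IEC libraries and 1 count in the controls. T and intraepithelial lymphocyte markers were positive in 21 of 21 (median 0.63, and 0.38 without HIF1α∆IEC replicate 3), with 10 above the controls without overlap, against the same 4.60%, and a summed level of 688 to 1211 CPM in HIF1α∆IEC and 562 to 719 CPM in the controls. Trbc2, a T cell receptor constant gene, had 17.2, 34.6 and 34.3 CPM in HIF1α∆IEC, against 10.7, 12.4 and 8.84 CPM in the controls (1.43 ± 0.72, and 2.78 with a term for sex). Stromal and muscle markers were positive in 9 of 11 (median 1.80, and 1.33 without HIF1α∆IEC replicate 2), with 2 above the controls without overlap (18.2%, against the same 4.60%). Their summed levels were only 21.7 to 41.5 CPM in HIF1α∆IEC and 21.1 to 28.3 CPM in the controls. By library their median lay 0.05, 1.88 and 1.88 log2 units from the control mean in HIF1α∆IEC, against -0.33, -0.09 and 0.43 in the controls, so the groups overlapped. Lum, a collagen-associated proteoglycan, had 0 counts in all 6 libraries. Col6a1, a collagen chain, had 0.471, 1.16 and 1.36 CPM in HIF1α∆IEC, against 0.195, 0.244 and 0.379 CPM in the controls. Mesothelial markers were positive in 7 of 8 (median 1.12, and 0.70 without HIF1α∆IEC replicate 3), with Upk3b, a uroplakin of mesothelium, at 1.01, 1.74 and 1.93 CPM in HIF1α∆IEC, against 0.830, 0.244 and 0.569 CPM in the controls; Muc16 had 0 counts in all 6 libraries. No member of these lists passed the test. In bulk RNA more cells of a type and more RNA per cell cannot be told apart, and the part of such cells in other differences was not tested.

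**Figure D3:**
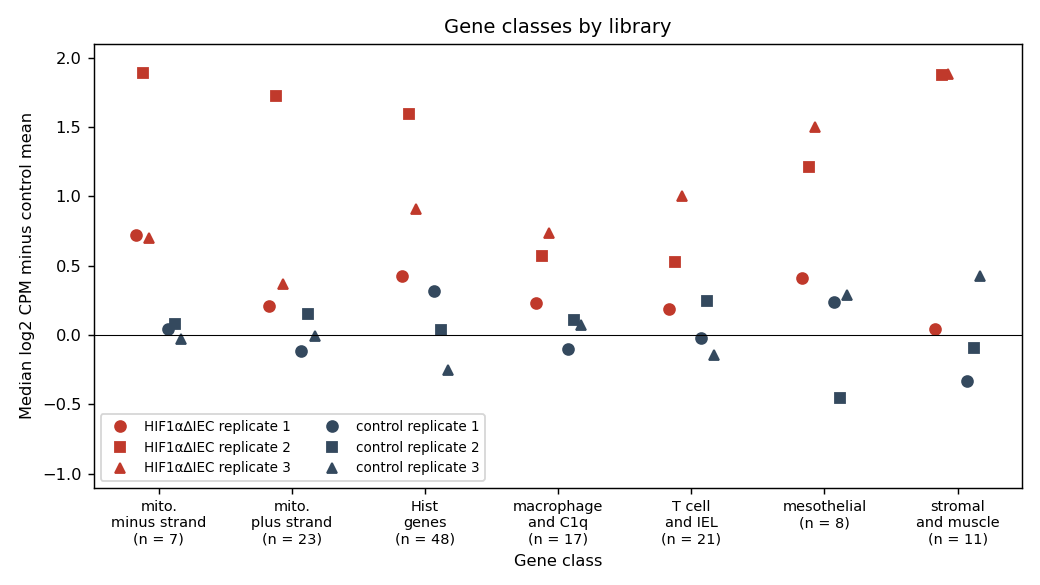
Median over the genes of a class of log2 CPM minus the control mean on the y axis, by library, for mitochondrial genes of each strand, histone genes, and macrophage, T cell and intraepithelial lymphocyte (IEL), mesothelial and stromal markers; red is HIF1α∆IEC and dark blue control, and n is the number of genes. HIF1α∆IEC replicate 2 is highest in the mitochondrial and histone classes, at 1.89 and 1.72 for the strands, and HIF1α∆IEC replicate 1 is the lowest of its group in the histone class and in all 4 marker classes.

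Secretory and hormone genes of the epithelium were also among the higher genes. Guca2a, the gut peptide guanylin, had 582, 955 and 559 CPM in HIF1α∆IEC, against 460, 242 and 265 CPM in the controls (1.12 ± 0.33). Tpsg1, a tryptase on the goblet cell list, had 43.5, 72.0 and 60.6 CPM in HIF1α∆IEC, against 40.1, 26.3 and 25.6 CPM in the controls (0.94 ± 0.29, and 0.54 with a term for sex). Control replicate 1 was the highest control in both genes. Of 16 goblet cell markers 11 were positive and 5 negative (median 0.39), with Guca2a, Tpsg1 and Tff3 above the controls without overlap and 0 below. Over all genes tested 4.60% lay above and 3.72% below. The 5 negative markers were Clca1 (-0.57), Fcgbp (-0.25), Galnt12 (-0.10), Agr2 (-0.03) and the mucin gene Muc2 (-0.002). The enteroendocrine list split 9 to 7 (median 0.07, and -0.19 without HIF1α∆IEC replicate 3), and 2 of its 16 members (12.5%), both hormones, stood above the controls without overlap. Sct, secretin, had 34.9, 48.9 and 54.4 CPM in HIF1α∆IEC, against 31.3, 20.4 and 26.0 CPM in the controls (0.83 ± 0.26). Sst, somatostatin, had 49.9, 67.8 and 98.3 CPM in HIF1α∆IEC, against 41.7, 35.9 and 42.9 CPM in the controls (0.84 ± 0.27, 0.54 without HIF1α∆IEC replicate 3 and 0.55 with a term for sex).

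The other epithelial lists gave little separation. Enterocyte markers were positive in 11 of 18 (median 0.05, from -0.12 to 0.08 over scalings and libraries left out), Paneth cell markers in 10 of 15 (0.19), tuft cell markers in 12 of 17 (0.17) and crypt and proliferation markers in 9 of 16 (0.01), each with 0 members that did not overlap in either direction. Of 16 circadian clock genes 8 were positive and 8 negative, also with 0 apart. Immediate early and heat shock genes, known to respond to tissue handling, were positive in 26 of 29 (median 0.41, 0.26 without HIF1α∆IEC replicate 1, 0.67 without control replicate 1 and 0.27 without control replicate 3), with 3 above the controls without overlap (10.3%, against 4.60% over all genes tested). Junb, an AP-1 subunit, had 141, 155 and 149 CPM in HIF1α∆IEC, against 119, 69.0 and 82.7 CPM in the controls (0.72 ± 0.24), and control replicate 1 again lay nearest to HIF1α∆IEC. Jun was at 0.91 ± 0.35, or 0.27 without HIF1α∆IEC replicate 3 and 0.56 with a term for sex. Id1, an inhibitor of helix-loop-helix factors, had 162, 214 and 188 CPM in HIF1α∆IEC, against 138, 81.3 and 106 CPM in the controls (0.79 ± 0.23).

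Lists of distal and proximal intestine genes had medians of opposite sign, and no member passed. Distal intestine markers were positive in 11 of 14 (median 0.27) and proximal markers in 5 of 14 (median -0.11). Fgf15, the ileal hormone that restrains bile acid synthesis, had 3.62, 12.6 and 3.82 CPM in HIF1α∆IEC, against 2.69, 0.528 and 1.29 CPM in the controls (2.15 ± 0.76). Nr0b2, a target of the bile acid receptor FXR, was at 0.71 ± 0.47. Cubn, the endocytic receptor for vitamin B12 bound to intrinsic factor, had 38.4, 75.2 and 43.1 CPM in HIF1α∆IEC, against 29.0, 21.8 and 18.3 CPM in the controls (1.18 ± 0.46). It was counted in the proximal list as drawn up here, though its use as a proximal marker is uncertain.

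Ranked by the difference of mean CPM, which is not per length and so favours long, abundant transcripts, the genes without overlap were led by mitochondrial transcripts. The cytochrome b gene mt-Cytb had 12913, 26288 and 13996 CPM in HIF1α∆IEC, against 12335, 12167 and 10893 CPM in the controls. HIF1α∆IEC replicate 2 was the high library; mt-Cytb was at 0.59 ± 0.35, and at 0.16 without that library. Crip1, a small LIM-domain protein of the gut, had 1195, 2337 and 1172 CPM in HIF1α∆IEC, against 1068, 527 and 681 CPM in the controls (1.05, and 0.61 without HIF1α∆IEC replicate 2). Defa2, a Paneth cell defensin with many near-identical copies, had 922, 2053 and 984 CPM in HIF1α∆IEC, against 791, 511 and 576 CPM in the controls (1.08, 0.57 without HIF1α∆IEC replicate 2, and 0.19 with a term for sex). Phgr1, an intestinal proline-, histidine- and glycine-rich protein, had 217, 540 and 250 CPM in HIF1α∆IEC, against 187, 113 and 144 CPM in the controls (1.18, 0.62 without HIF1α∆IEC replicate 2 and 0.78 with a term for sex).

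On the lower side of the abundance ranking stood Dmbt1, a scavenger glycoprotein of mucosal defence, with 1493, 1625 and 1736 CPM in HIF1α∆IEC, against 1757, 2434 and 3837 CPM in the controls. It was at -0.73 ± 0.32, and at -0.37 without control replicate 3. Vdr, the vitamin D receptor, had 568, 383 and 547 CPM in HIF1α∆IEC, against 599, 575 and 633 CPM in the controls (-0.27, -0.14 without HIF1α∆IEC replicate 2 and -0.41 without replicate 1). Srrm2, a splicing scaffold, had 387, 296 and 403 CPM in HIF1α∆IEC, against 439, 497 and 499 CPM in the controls (-0.40). Rpl6, a ribosomal protein, was lower at 588, 590 and 617 CPM in HIF1α∆IEC, against 633, 811 and 704 CPM in the controls (-0.26, and -0.16 without control replicate 2). Where overlap was allowed, the largest lower differences were the antimicrobial genes Reg3b, at 1533, 4532 and 2396 CPM in HIF1α∆IEC against 1486, 3321 and 9642 CPM in the controls, and Lyz1, at 4995, 3648 and 4658 CPM in HIF1α∆IEC against 3304, 8170 and 7110 CPM in the controls. Reg3b was high in control replicate 3, and Lyz1 in control replicates 2 and 3.

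Abundant genes leaned upward. Of the 100 most abundant genes 67 were positive (median 0.20), and of the 400 that followed in rank 270 were positive (median 0.10), with 9 above and 1 below the controls without overlap in the first class and 24 and 3 in the second. Among the 5486 least abundant genes tested the median was 0.04, with 313 above (5.71%) and 293 below (5.34%). Over all genes tested 4.60% lay above and 3.72% below.

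Protein-coding genes with short deposited length leaned upward most, a grouping chosen after the values were seen. Of 618 such genes up to 1 kb, 506 were positive (median 0.42), and 21.4% stood above the controls without overlap against 1.94% below. From 1 to 2 kb the median was 0.12 with 8.50% above and 2.36% below, from 2 to 4 kb it was 0.02 with 3.18% and 3.01%, and over 4 kb it was -0.01 with 1.66% above and 3.55% below. Without ribosomal protein, histone and mitochondrially encoded genes, the 527 other genes up to 1 kb had a median of 0.36, with 19.2% above and 2.28% below. By library the shortest class lay 0.27, 0.52 and 0.47 log2 units from the control mean in HIF1α∆IEC, against 0.25, -0.08 and -0.16 in the controls. Control replicate 1 was level with HIF1α∆IEC replicate 1, so the medians of the 2 closest libraries nearly coincided in each length class. Of 106 ribosomal protein genes 90 were positive (median 0.37), at 0.22, 0.50 and 0.46 in HIF1α∆IEC, against 0.22, -0.04 and -0.19 in the controls. The part of transcript length in the differences of short genes such as Mt1, Mt2, Guca2a, Tff3, Crip1 and Phgr1 was not tested.

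**Figure D4:**
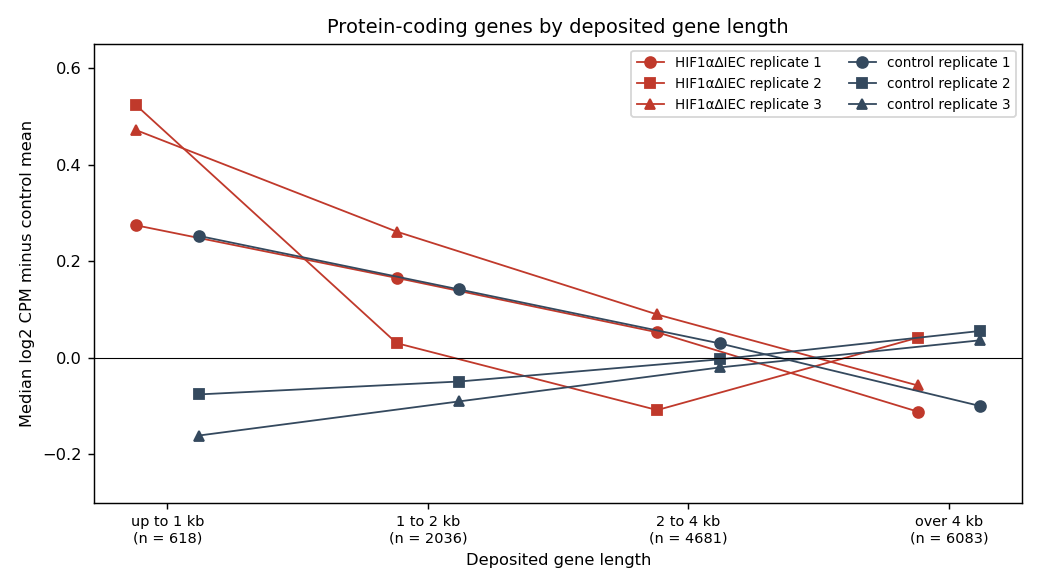
Median log2 CPM minus the control mean on the y axis for protein-coding genes in 4 classes of deposited gene length on the x axis, with 1 line per library, red for HIF1α∆IEC and dark blue for control. In the class up to 1 kb the HIF1α∆IEC libraries sit at 0.27, 0.52 and 0.47 and the controls at 0.25, -0.08 and -0.16, and the lines of HIF1α∆IEC replicate 1 and control replicate 1 run together.

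Medians of the deposited biotypes lay on both sides of 0. Of 398 lincRNAs 261 were negative (median -0.26, and -0.17 without control replicate 2), with 4.52% above and 11.1% below the controls without overlap. Antisense RNAs (324 genes, median -0.26) and processed transcripts (238 genes, median -0.22) had 9.57% and 8.82% below. Leaving out HIF1α∆IEC replicate 2 gave antisense RNAs a median of -0.13 and leaving out replicate 1 gave -0.41, with processed transcripts at -0.36 without HIF1α∆IEC replicate 1, -0.33 without control replicate 1 and -0.14 without control replicate 2. Of 70 snoRNAs, small guide RNAs of the nucleolus that mostly lie in introns, 52 were negative (median -0.39, and -0.22 without HIF1α∆IEC replicate 2) with 14.3% below. Snora16a had 0.399, 0.211 and 0.143 CPM in HIF1α∆IEC, against 0.488, 1.22 and 1.44 CPM in the controls. Processed pseudogenes, reverse-transcribed copies of messenger RNAs, went the other way: 199 of 591 were negative (median 0.21), with 13% above and 4.23% below, and the median was 0.07 without HIF1α∆IEC replicate 2. By library snoRNAs lay at -0.05, -0.81 and -0.18 in HIF1α∆IEC, against -0.12, 0.26 and -0.11 in the controls, and lincRNAs at -0.09, -0.26 and -0.21 in HIF1α∆IEC, against -0.18, 0.15 and 0.01 in the controls. The libraries of the groups overlapped in both classes.

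**Figure D5:**
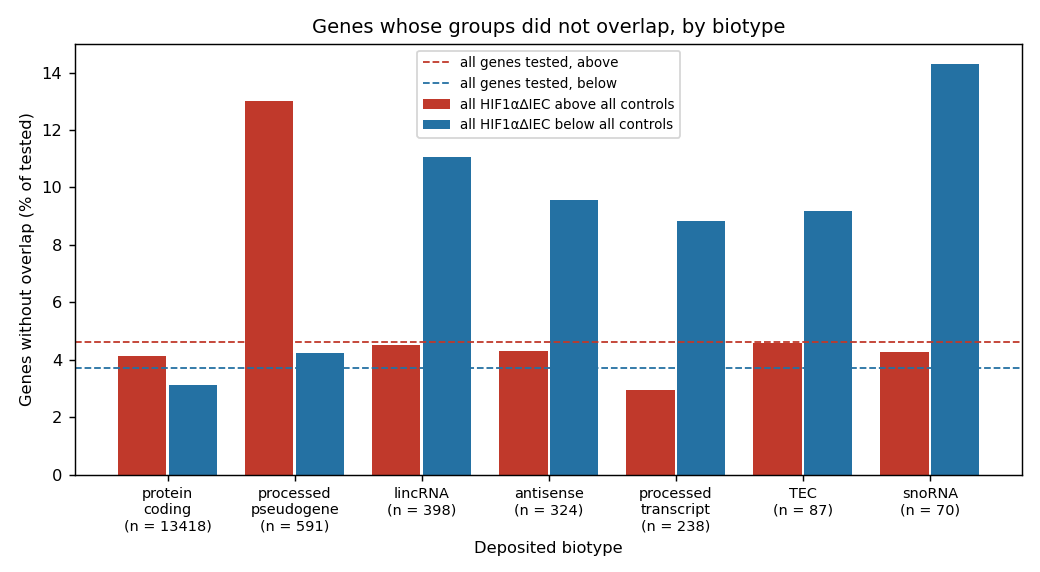
Share of tested genes whose groups did not overlap on the y axis, in percent, for the 7 deposited biotypes with at least 70 tested genes, with red bars for genes with all HIF1α∆IEC libraries above all controls and blue bars for all below; dashed lines are the shares over all genes tested (4.60% and 3.72%) and TEC marks loci to be experimentally checked. Among these 7, processed pseudogenes have the tallest red bar (13%), and snoRNAs (14.3%) and lincRNAs (11.1%) the tallest blue bars.

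All 30 tested genes of the mitochondrial genome were positive (median 1.02). Of these, 17 stood above the controls without overlap (56.7%, against 4.60% over all genes tested). Of the 7 on the minus strand, mostly transfer RNA genes, 6 did not overlap, and of the 23 on the plus strand 11 did not. By library the minus strand lay at 0.72, 1.89 and 0.70 in HIF1α∆IEC, against 0.05, 0.08 and -0.03 in the controls, and the plus strand at 0.21, 1.72 and 0.37 in HIF1α∆IEC, against -0.11, 0.15 and -0.01 in the controls. Without HIF1α∆IEC replicate 2 the median fold changes were 0.66 and 0.35. The transfer RNA gene mt-Tn had 17.9, 83.5 and 25.1 CPM in HIF1α∆IEC, against 10.6, 11.8 and 10.2 CPM in the controls (1.96, and 0.95 without HIF1α∆IEC replicate 2). The oxidase subunit mt-Co3 had 168, 229 and 115 CPM in HIF1α∆IEC, against 38.5, 83.4 and 70.6 CPM in the controls (1.41 ± 0.40). The split by strand was made after the values were seen.

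Histone genes lay mostly on 1 chromosome and nearly all in 1 direction. Replication-dependent histones supply chromatin in S phase, and most of their messenger RNAs lack a poly(A) tail. Of 48 tested genes with names starting in Hist, 47 were positive (median 1.04). Without overlap, 19 stood above the controls (39.6%) and 0 below, against 4.60% and 3.72% over all genes tested. On chromosome 13 lay 42 of the 48, all 42 positive, while the other 557 tested genes of that chromosome had a median of 0.03. Hist1h3a had 0.689, 2.22 and 1.14 CPM in HIF1α∆IEC, against 0.439, 0.447 and 0.228 CPM in the controls (1.84 ± 0.56). By library the class lay at 0.43, 1.60 and 0.91 in HIF1α∆IEC, against 0.32, 0.04 and -0.25 in the controls, and its median fold change was 0.68 without HIF1α∆IEC replicate 2. Mki67, a marker of dividing cells, had 32.8, 204 and 62.5 CPM in HIF1α∆IEC, against 45.6, 38.1 and 28.8 CPM in the controls, so its groups overlapped and HIF1α∆IEC replicate 2 was highest.

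Chromosome by chromosome, autosomes had medians of -0.00 to 0.06. Of 467 X-linked genes 272 were positive (median 0.09), with 23 above and 16 below without overlap. Those were 4.93% and 3.43%, close to the 4.60% and 3.72% over all genes tested. The X-linked median was -0.17 without HIF1α∆IEC replicate 2, 0.16 without HIF1α∆IEC replicate 1, -0.01 without control replicate 1 and -0.08 with library totals. All 7 tested Y-linked genes were negative (median -1.61), with 4 below without overlap. The sexes read from the libraries differ between the groups: Xist had 0.0725, 276 and 105 CPM in HIF1α∆IEC, against 0, 0.284 and 0.0379 CPM in the controls, and Kdm5d, a Y-linked histone demethylase, had 8.15, 0 and 0 CPM in HIF1α∆IEC, against 8.74, 14 and 15.8 CPM in the controls. In both genes the male HIF1α∆IEC replicate 1 stood near the controls, and only the 2 female libraries stood far from them. No control was female, so a term for sex rests on the HIF1α∆IEC and HIF2α∆IEC libraries.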

How the data were processed

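The authors deposited raw counts per gene for 9 libraries, 3 each of HIF1α∆IEC, HIF2α∆IEC and control, which were used as deposited. Per the labels' protocols, TruSeq libraries were made from total RNA; their extraction text names an arthritis model although the treatment label says naïve. The submitters' processing notes name CASAVA, Bowtie 0.12.2 and mm10. How reads were assigned to genes (program, annotation, strand) is not given in the sources used here. The members and lists were chosen with earlier results of these data known.

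In R 4.3.3, edgeR 4.0.16 kept 15486 genes (filterByExpr), scaled libraries by TMM and fitted all 9 libraries by group, with the quasi-likelihood test, Benjamini-Hochberg adjustment and 6 residual degrees of freedom. Log2 CPM used a prior count of 2. Alternatives were DESeq2 1.42.0, limma-voom (limma 3.58.1), other scalings and filters, a fit of the 6 libraries, a replicate block, a term for sex and each library left out. Named genes were Hif1a, Epas1 and Arnt, genes without overlap of smallest p or largest difference, and list members of smallest p; from these the text describes a selection, and 1 gene that the rule names is not reported here. Susd3, Mcpt2, the Mt1 to Mt2 ratio, Snora16a and the length, histone and strand classes were chosen after their values were seen. The fits were tested on simulated counts.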

Additional observations from a re-analysis of the deposited data

How the results depend on the processing

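Genes called at an adjusted p under 0.05 numbered 0 in the edgeR fit, 2 with DESeq2 (C1qb and C1qc), 1 with no filter on low counts (Gm6969) and 1 with the replicate block (Xist), and 0 to 1 with each library left out. Whether replicate numbers pair the samples cannot be told from so few libraries. Deviations of same-numbered libraries from their group means correlated at 0.24, 0.17 and -0.09, and those of differently numbered libraries at -0.24 to 0.16. The block changed no other call. Against 600 genes at an unadjusted p under 0.05, no filter gave 950, and single libraries left out gave 219 (control replicate 3) to 1150 (control replicate 1), with 1040 without HIF1α∆IEC replicate 1 and 235 without control replicate 2. The split of 450 higher to 150 lower was 263 to 345 with library totals, where the median of all genes was -0.13, and 145 to 305 without HIF1α∆IEC replicate 2. Genes without overlap, 713 above and 576 below, were 448 and 1151 with library totals, 1037 below with no filter, and 997 to 2190 above and 860 to 2350 below with single libraries left out. With 1 library left out, 2 libraries stand against 3 and are easier to separate. Those counts must rise and cannot be set against 713 and 576. Of 54 named genes 53 kept their direction over the alternatives. Most were named because their groups did not overlap, so leaving out 1 library could hardly reverse them. Epas1, whose groups overlapped, was at -0.0694 with library totals and at 0.8102 with a term for sex. With single libraries left out it ran from -0.1925 to 0.3673. It was negative without HIF1α∆IEC replicate 1, control replicate 2 (-0.1924) and control replicate 3 (-0.00171). The class up to 1 kb kept a positive median (0.27 to 0.53), and lincRNAs (-0.41 to -0.17) and snoRNAs (-0.55 to -0.22) a negative one, over scalings and libraries left out. The causes were not tested. At total counts of 20959964 to 29931812, genes under 1 CPM rest on few counts.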

Other observations

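Of the 43629 genes in the deposited count table, 46 had counts in all 3 HIF1α∆IEC libraries and 0 in all 3 controls, and 71 had the reverse, all outside the genes tested. How many would do so by chance was not estimated. All of them had few counts. Nes, an intermediate filament gene of progenitor and stromal cells, had 5, 4 and 3 counts in HIF1α∆IEC and 0 in each control, and Abca12, a lipid transporter, had 1, 19 and 4 counts in HIF1α∆IEC and 0 in each control. In the other direction the antisense locus Gm16233 had 0 counts in each HIF1α∆IEC library and 5, 6 and 4 in the controls, and Slc10a1, a bile acid importer, had 0 counts in each HIF1α∆IEC library and 1, 3 and 7 in the controls. A count of 0 allows up to 3 counts in that library, counting error only.

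Yam1, deposited as a lincRNA, took 0.794%, 1.69% and 0.634% of the counts in HIF1α∆IEC, against 0.855%, 0.442% and 0.256% in the controls. Its level overlapped between the groups, at 8261, 18698 and 6771 CPM in HIF1α∆IEC against 8961, 4040 and 2402 CPM in the controls. Gm6969, a processed pseudogene, had 1.09, 1.11 and 1.64 CPM in HIF1α∆IEC, against 69.1, 51.3 and 0.683 CPM in the controls.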
